A study of Danio rerio with 12 samples.

Results

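The genes described here encode parts of the cellular response to low oxygen and the transport of lactate: *hif1an*, *slc16a3b* (*slc16a3* on the array), *hif1ab*, *vhl*, *egln3*, *vegfaa*, *ldha* and *pdk1*. Every array feature paired with one of these genes, by its symbol on the array or by its accession, was taken. This gave 16 features for 7 of the 8 genes, of 45220 features and 13286 genes in all, and no feature was paired with *pdk1*, which was not analysed here. *hif1an* and *slc16a3b* were chosen because their signal rose in double morphants in these same arrays. Their changes between MO groups are therefore given as a description, without a test, and the question asked is whether the other genes of the pathway moved with them.

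The RNA came from whole zebrafish embryos of the AB strain, about 200 per sample, at shield (6 hpf) or at 90% epiboly (9 hpf). Control embryos received 0.75 pmol of a standard control MO (an antisense oligonucleotide without a target in the embryo), and double morphants received 0.5 pmol of *tbx16* MO with 0.25 pmol of *ta* MO. Each of the 4 groups had 3 samples and each sample was hybridised with 1 dye to its own array. Whether the samples of a group were separate clutches is not stated, and the p-values then reflect no more than the spread among them, which may be technical.

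In normal oxygen, prolyl hydroxylases such as Egln3 modify the alpha subunit of hypoxia-inducible factor (HIF), and the Vhl ubiquitin ligase then marks it for destruction. Hif1an, also known as factor inhibiting HIF, hydroxylates an asparagine of the alpha subunit and keeps it from binding coactivators. When oxygen is short, the alpha subunit pairs with a beta subunit in the nucleus. HIF then raises the transcription of genes for glycolysis, lactate handling and vessel growth. Known targets from studies in mammals and fish include *vegfaa* (a ligand for blood vessel growth), *egln3* and *ldha* (lactate dehydrogenase, which turns pyruvate into lactate). They also include *pdk1* (a kinase that inhibits pyruvate dehydrogenase) and *slc16a3* (a transporter, MCT4 in mammals, that exports lactate with a proton).

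All values are log2 intensities, and an intensity was compared only with the same feature in other samples, since features differ in how brightly they report a transcript. Array medians lay between 7.06 and 7.07, and arrays of a group correlated across features at 0.966 to 0.990. *tbxta* (the current symbol of *ta*), a target of the MOs, was not lower but higher in double morphants, at 11.36 to 11.83 against 9.99 to 10.60 at shield and at 10.80 to 11.27 against 9.14 to 9.44 at 90% epiboly. *tbx16* was at 10.66 to 11.01 against 10.11 to 10.47 and at 9.49 to 9.99 against 9.12 to 9.73. A MO can block translation and leave its transcript in place, so these signals do not check the labels. Since whole embryos were measured, fewer cells of a type and less RNA per cell cannot be told apart in any result.

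*hif1an*, the asparaginyl hydroxylase that restrains HIF, had its highest signal in double morphants at shield. Its brightest feature read 9.07, 9.34 and 9.45 in the 3 control samples of shield and 10.67, 11.09 and 11.15 in the 3 double morphant samples. At 90% epiboly the controls were at 9.29, 9.13 and 8.32 and the double morphants at 9.81, 10.04 and 9.74. The groups did not overlap at either stage, although the third control sample of 90% epiboly lay well under the other two. The level in double morphants was 3.25 ± 0.553 times the control mean at shield and 1.94 ± 0.218 times at 90% epiboly (SD, n = 3), which are log2 differences of 1.69 and 0.95 (standard error 0.24 each).

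The second and dimmer *hif1an* feature gave the same order of groups. At shield it was at 7.0 to 7.43 in controls and at 8.16 to 8.80 in double morphants, a log2 difference of 1.38. At 90% epiboly it was at 6.57 to 7.35 in controls and at 7.29 to 7.76 in double morphants, a log2 difference of 0.65 with overlapping groups. The *hif1an* difference between MO groups was thus smaller at the later stage, by a log2 value of -0.73 with the brightest feature and -0.74 with the second. Between the stages the brightest feature gave a log2 difference of -0.37 in controls and -1.11 in double morphants, and the second feature gave -0.28 in controls. These are also given without a test, since the arrays are those of the choosing comparison.

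*slc16a3b*, the lactate exporter, differed between MO groups at both stages, and its brightest feature did so most at 90% epiboly. That feature was at 9.26, 10.03 and 10.05 in shield controls and at 11.09, 12.02 and 11.65 in shield double morphants. At 90% epiboly it was at 6.62, 7.38 and 7.11 in controls and at 9.97, 9.70 and 9.73 in double morphants. Double morphants thus lay above controls in every sample, at 3.63 ± 1.13 times the control mean at shield and 6.84 ± 0.725 times at 90% epiboly (SD, n = 3), or log2 differences of 1.81 and 2.77 (standard error 0.28 each).

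The 4 groups of *slc16a3b* could be ordered by level. Shield double morphants were highest and 90% epiboly controls lowest, and between them the double morphants of 90% epiboly (9.70 to 9.97) overlapped the controls of shield (9.26 to 10.05). From shield to 90% epiboly the log2 difference was -2.74 in controls and -1.79 in double morphants, and the control groups of the 2 stages did not overlap. The 3 other features of *slc16a3b* gave -1.14, -1.60 and -1.77 in controls. The control arrays in this stage comparison are also the controls of the comparison by which *slc16a3b* was chosen, so these values carry no test.

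The 4 *slc16a3b* features, which carry the same transcript accession, gave the same direction but not the same size. The brightest gave 6.81-fold at 90% epiboly, whereas the other 3, in order of brightness, gave 2.65-fold, 2.47-fold and 2.36-fold. At shield the 4 features were closer, at 3.51-fold, 3.11-fold, 2.84-fold and 2.34-fold. As a result, the double morphant difference was larger by 0.96 on the log2 scale at 90% epiboly than at shield with the brightest feature, but by 0.01 with the dimmest, and the 2 between gave -0.23 and -0.20. The dimmest was also the only 1 of them whose groups overlapped, at shield, where a control sample at 8.56 exceeded a double morphant at 8.52. Control means at 90% epiboly were 7.04 with the brightest feature and 6.73, 6.29 and 6.11 with the other 3, in order of brightness. How far such low signals lie above background is unknown. The fold values of the other 3 at 90% epiboly, and their falls with stage in controls, may thus be understated. Whether this accounts for the disagreement among the 4 features was not tested.

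**Figure D1:**
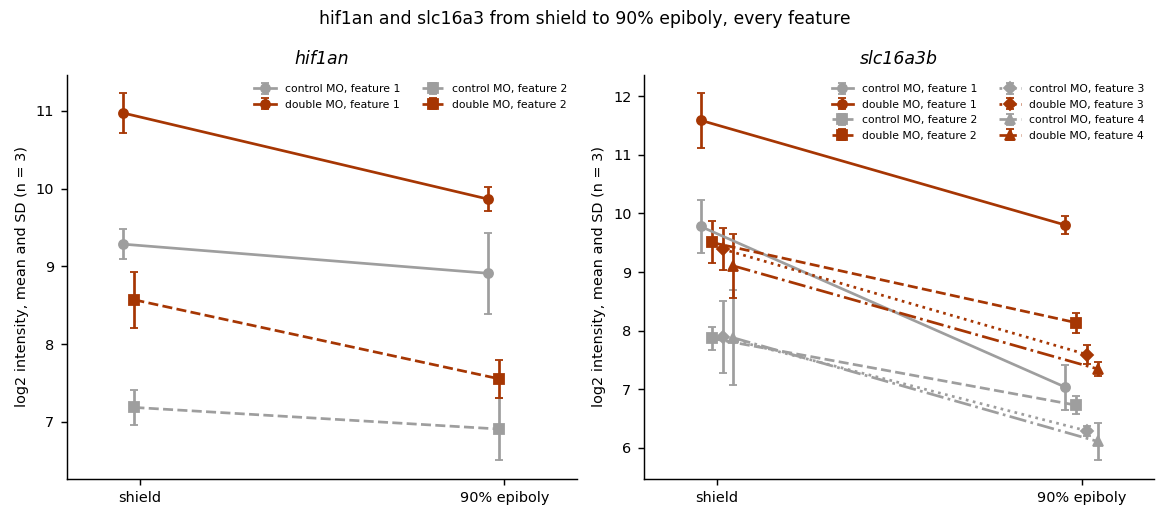
The log2 intensity (vertical axis, mean and SD of 3 samples) of each *hif1an* feature (left) and each *slc16a3b* feature (right) is drawn at shield and at 90% epiboly, with control MO in grey and double MO in brown. With the brightest feature of *hif1an* the stages differ by -0.37 in controls and -1.11 in double MO embryos, and for *slc16a3b* the control line of the brightest feature has the steepest slope (-2.74).

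The rise was not seen in the other measured genes of the group. Of *hif1ab*, *vhl*, *egln3*, *vegfaa* and *ldha*, 0 of 5 genes and 0 of their 10 features rose or fell in double morphants at either stage by limma with adjustment over all features. Across all genes, 0.286% were called higher and 0.263% lower at shield, and 0.218% higher and 0.572% lower at 90% epiboly, so 0 of 5 genes is near the background share and says little by itself. At an unadjusted p under 0.05, limma gave 1 gene lower at shield, *egln3*, and 0 genes at 90% epiboly, beside 4.8% of all genes higher and 4.16% lower at shield and 2.92% and 3.76% at 90% epiboly. The methods' t-test gave 0 of the 5 at each stage even without adjustment, beside 3.2% and 3.18% of all genes at shield and 4.04% and 4.19% at 90% epiboly. At each stage the highest upper 95% bound over these 10 features was a 1.82-fold rise.

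**Figure D2:**
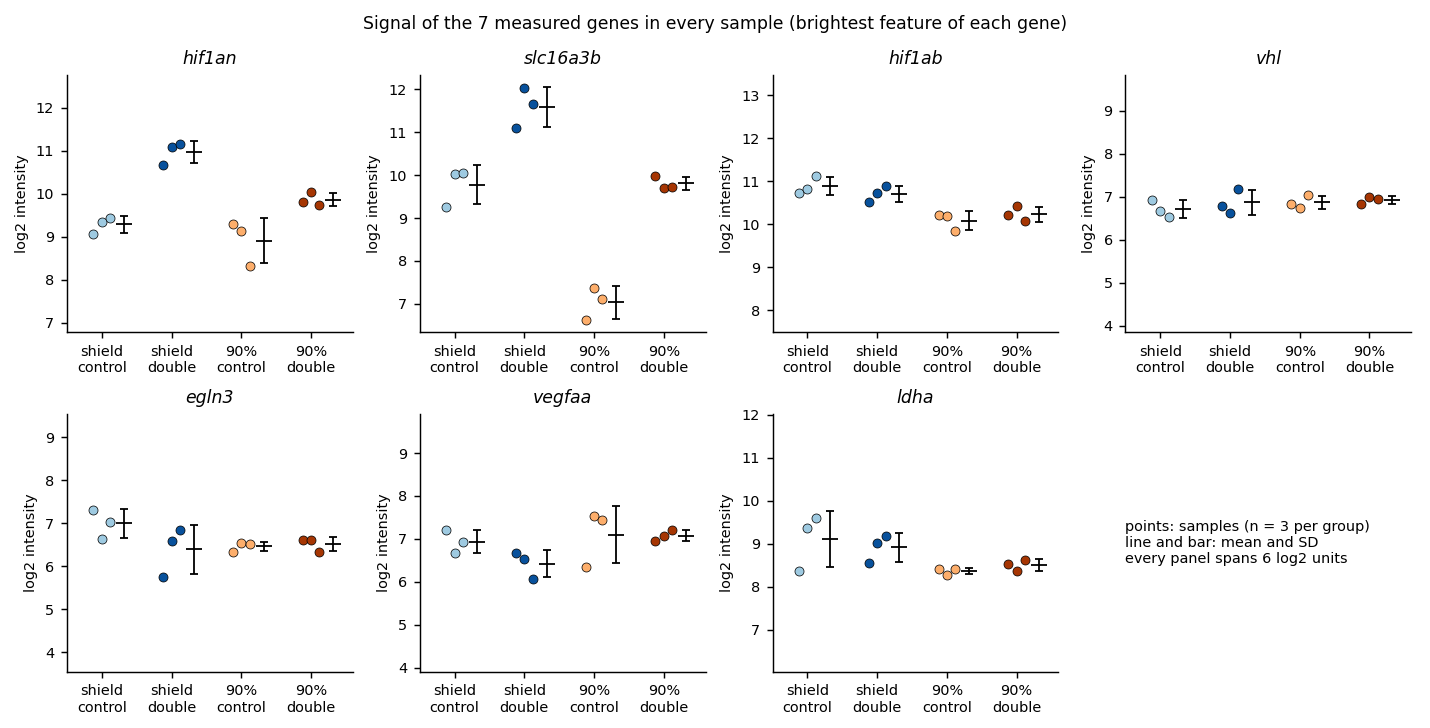
Points give the log2 intensity of each sample for the brightest feature of each of the 7 measured genes, in the 4 groups of 3 samples, with the mean and SD beside them, and every panel spans 6 log2 units. The double MO samples stand above the controls at both stages for *hif1an* and *slc16a3b*, and for *hif1ab*, *vhl*, *egln3* and *ldha* they overlap the controls at both stages.

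*hif1ab* encodes an alpha subunit of HIF, the protein that Hif1an acts on. At shield it was at 10.73, 10.81 and 11.13 in controls and 10.52, 10.72 and 10.89 in double morphants, and at 90% epiboly at 10.23, 10.19 and 9.84 against 10.21, 10.42 and 10.08. The groups overlapped at both stages. The log2 fold changes were -0.18 (95% interval -0.57 to 0.21, adjusted p = 0.827 from limma) and 0.15 (-0.24 to 0.54, adjusted p = 1). *hif1ab* did change with stage: in controls it fell by 0.80 on the log2 scale (limma, standard error 0.18, adjusted p = 0.010), while its dimmer second feature fell short of the test (-0.50, adjusted p = 0.102). In double morphants the brightest feature gave -0.47 between the stages (adjusted p = 0.103), and the difference between the 2 stage changes, 0.33, did not pass either (adjusted p = 1 from limma). The call in controls was lost without the third shield control (adjusted p = 0.0502) or the third control of 90% epiboly (adjusted p = 0.0550).

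*vhl*, the substrate-binding part of the ligase that removes hydroxylated HIF, had a single feature, which spanned 6.52 to 6.94 in shield controls, 6.62 to 7.19 in shield double morphants, 6.74 to 7.04 in controls of 90% epiboly and 6.82 to 7.0 in double morphants of that stage. All 4 groups overlapped one another. The log2 fold change in double morphants was 0.16 at shield (95% interval -0.23 to 0.55, adjusted p = 0.856 from limma) and 0.05 at 90% epiboly (-0.34 to 0.44, adjusted p = 1). The stages differed in controls by 0.16 (adjusted p = 0.639).

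*egln3*, which encodes a prolyl hydroxylase and is itself a HIF target, had lower means in shield double morphants. Its brightest feature was at 7.32, 6.64 and 7.04 in shield controls and 5.76, 6.59 and 6.84 in double morphants, and the second feature at 7.40, 6.81 and 6.64 against 6.0, 6.26 and 6.72. Both overlapped, with the first double morphant sample lowest for each. The log2 fold changes of -0.60 (95% interval -1.15 to -0.06) and -0.62 (-1.13 to -0.11) had unadjusted p = 0.0332 and 0.0205 and were not called once adjusted over all features (limma, adjusted p = 0.505 and 0.437). With 1 array left out, the shield value of the brightest feature ranged from -0.826, without the third shield double morphant, to -0.283, without the first. At 90% epiboly *egln3* was at 6.34 to 6.54 in controls and 6.33 to 6.61 in double morphants, a log2 fold change of 0.05 (-0.49 to 0.60, adjusted p = 1). The change of *egln3* between shield and 90% epiboly in controls, -0.53, did not pass (adjusted p = 0.207).

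*vegfaa*, the HIF target that drives vessel growth, read 7.20, 6.67 and 6.93 in shield controls and 6.66, 6.53 and 6.06 in shield double morphants. The 3 double morphant samples lay below the 3 controls, the nearest pair by less than the SD of either group, and the log2 fold change of -0.51 (95% interval -1.12 to 0.09) did not pass (adjusted p = 0.638 from limma). At 90% epiboly the controls spread from 6.34 to 7.53, the widest control range among the brightest features of the 5 genes at that stage, and enclosed the double morphants at 6.96 to 7.21. The second *vegfaa* feature was the only 1 of the 16 with a mean under 6.56, the 40th percentile of mean feature signals. Its log2 fold changes were 0.03 and -0.08. Both *egln3* features had means just above that percentile, at 6.59 and 6.57. How far such signals lie above background is unknown, so the small *egln3* difference at 90% epiboly may be understated. The brightest *vegfaa* feature gave 0.17 between the stages in controls (adjusted p = 0.772 from limma).

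*ldha*, which makes lactate from pyruvate, showed wide spread at shield. The brightest feature was at 8.37, 9.36 and 9.60 in shield controls and at 8.54, 9.02 and 9.17 in shield double morphants, and at 8.40, 8.27 and 8.42 against 8.52, 8.36 and 8.63 at 90% epiboly. The first sample of each shield group was the lowest, and the groups overlapped at both stages. The log2 fold changes were -0.20 (95% interval -0.78 to 0.38, adjusted p = 0.884 from limma) and 0.14 (-0.44 to 0.72, adjusted p = 1), and the 2 other features ranged from -0.36 to 0.15 over both stages. Between the stages the brightest *ldha* feature gave -0.75 in controls and missed the threshold (adjusted p = 0.0917 from limma). The 2 other features gave -0.60 and -0.08 (limma, adjusted p = 0.283 and 0.902). Without the first shield control the value of the brightest feature was -1.12 and passed (adjusted p = 0.00321), as it did with array weights (-0.93, adjusted p = 0.00658).

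**Figure D3:**
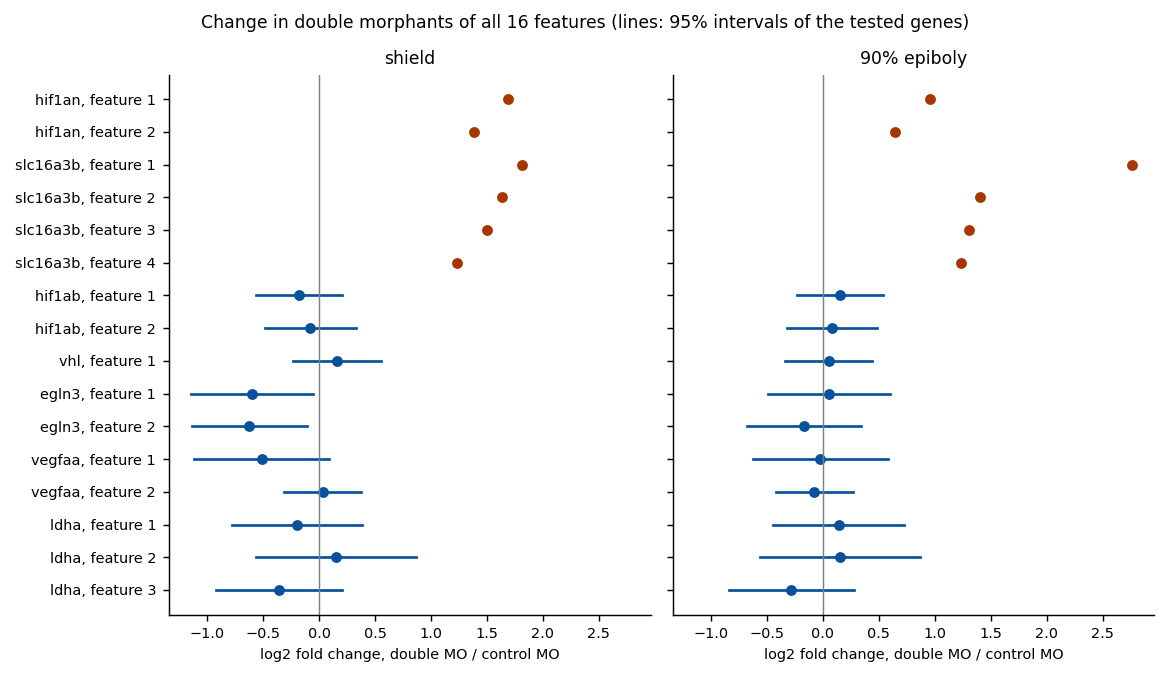
The log2 fold change of double MO against control MO (horizontal axis) is plotted for all 16 features at shield (left) and 90% epiboly (right). Brown points are the features of *hif1an* and *slc16a3b*, drawn without intervals because they were chosen by this change, and blue points with 95% intervals are the 10 tested features, whose upper bounds reach at most a 1.82-fold rise.

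The only call among the 5 tested genes came from the comparison of stages. From shield to 90% epiboly in controls, 0 of the 5 genes not chosen by their rise were called higher and 1, *hif1ab*, fell by limma, against a background of 7.2% of all genes called higher and 8.29% lower. That call was lost without the third control of either stage, as given above. At an unadjusted p under 0.05, 0 were higher and 2 lower by limma (15.3% and 14.7% of all genes) and 0 higher and 1 lower by the methods' t-test (11.4% and 12%). In double morphants, 0 of the 5 genes were called in either direction, against 7.89% and 8.23% of all genes by limma. Unadjusted, 1 was higher (*vegfaa*) and 1 lower (*hif1ab*) by limma (15.9% of all genes in each direction), and 1 higher and 1 lower by the methods' t-test (12.8% and 13.6%). *vegfaa* gave 0.66 there (adjusted p = 0.146 from limma) and passed only without the first control sample of 90% epiboly (adjusted p = 0.0419), a sample that enters this comparison only through the shared estimate of the spread. The interaction of stage and MO passed for 0 of the 5 genes by limma, where 0.0978% of all genes were called higher and 0.113% lower, and 0 had an unadjusted p under 0.05, beside 1.3% and 2.56% of all genes.

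The wider pathway was read from lists of genes grouped by role, which held 123 genes, of which 96 were measured and 94 were counted after *hif1an* and *slc16a3b* were set aside. By the brightest feature of each gene, at shield 0 of the 94 were called higher and 1 (1.06%) lower in double morphants, and at 90% epiboly 0 higher and 2 (2.13%) lower by limma over all features, beside 0.286% of all genes higher and 0.263% lower at shield and 0.218% and 0.572% at 90% epiboly. Without adjustment, 4 were higher and 5 lower at shield and 2 higher and 3 lower at 90% epiboly, which are shares near those of all genes. The methods' t-test, unadjusted, gave 4 higher and 3 lower at shield, beside 3.2% and 3.18% of all genes. At 90% epiboly it gave 5 higher and 3 lower, beside 4.04% and 4.19% of all genes. After adjustment the methods' t-test called 0 of the 94 at either stage, beside 0.0% of all genes higher and 0.0226% lower at shield and 0.113% in each direction at 90% epiboly. By limma the interaction of stage and MO passed for 0 of the 94, beside 0.0978% of all genes higher and 0.113% lower. At an unadjusted p under 0.05, 1 was above and 3 below 0, beside 1.3% and 2.56% of all genes. The median log2 fold change of the 94 genes was 0.04 at each stage, beside 0.02 and 0.01 over all genes.

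**Figure D4:**
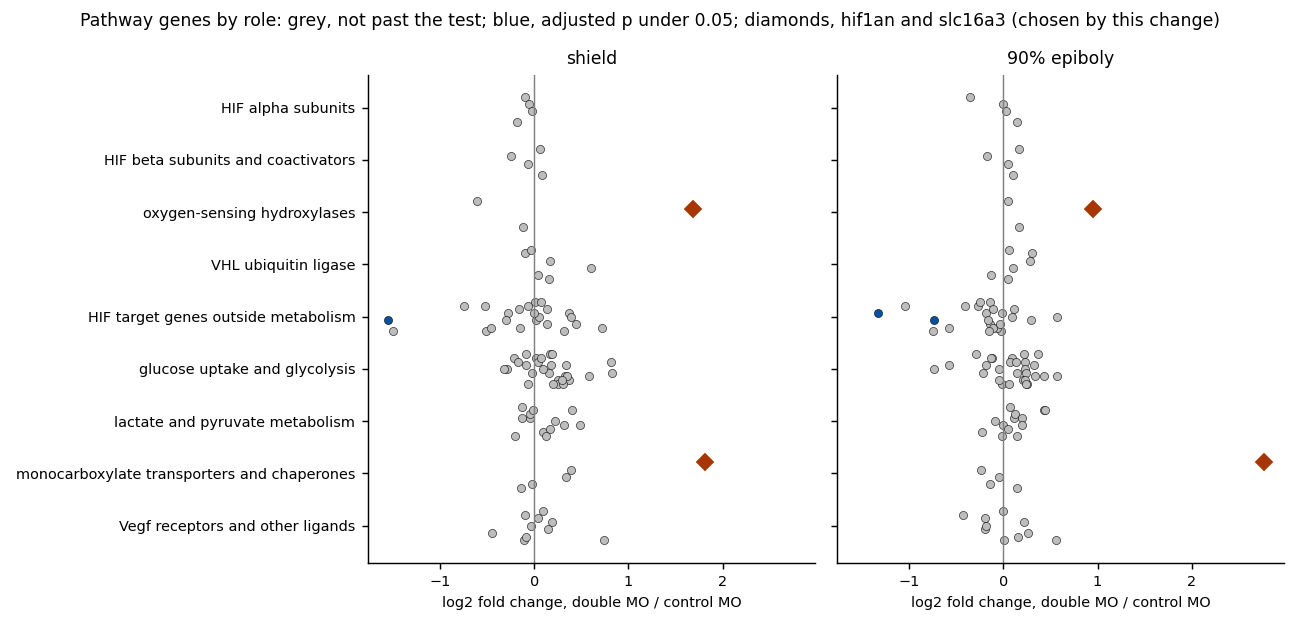
Each point is a gene of the pathway lists, placed by its log2 fold change of double MO against control MO (horizontal axis) at shield (left) and 90% epiboly (right) in the row of its role. Brown diamonds mark *hif1an* and *slc16a3b*, blue points the genes with adjusted p under 0.05, which were 1 lower gene at shield and 2 at 90% epiboly, and grey points those that did not pass.

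The lower genes encode collagen prolyl 4-hydroxylases, enzymes that use oxygen to mature collagen and are HIF targets in mammals. The paper lists *p4ha2* among putative target genes with overlapping Ta and Tbx16 binding peaks at mid-gastrulation. Whether this binding or HIF has a part in the lower *p4ha2* signal was not tested. *p4ha2* was at 10.45, 10.20 and 10.42 in shield controls and at 8.92, 8.72 and 8.79 in double morphants. Its log2 fold change was -1.55 (limma, standard error 0.15, adjusted p = 0.000121), and the 2 remaining features gave -1.51 and -1.46 and passed as well. At 90% epiboly *p4ha2* was at 10.38 to 10.64 in controls and 9.59 to 9.86 in double morphants (-0.74, adjusted p = 0.0443), but its other features, at -0.64 and -0.55, did not pass there (adjusted p = 0.453 and 0.902). With the brightest *p4ha2* feature, double morphants were thus below every control at both stages. With the dimmest, the groups overlapped at 90% epiboly, where a double morphant at 8.33 exceeded a control at 8.29. The smaller difference of the brightest feature at 90% epiboly was not itself called (interaction 0.81, adjusted p = 0.475 from limma, the lowest of the 94 genes).

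*p4ha1b* overlapped at shield (7.15 to 8.09 against 7.28 to 8.06) and was lower in every double morphant sample at 90% epiboly, at 7.94, 8.06 and 8.54 in controls against 6.61, 6.92 and 7.02. Its log2 fold change was -1.33 (limma, standard error 0.26, adjusted p = 0.0346), and a second feature gave -1.12 (adjusted p = 0.0428). At 90% epiboly *p4ha1b* passed in 14 of 22 alternatives and *p4ha2* in 7 of 22, and with any 1 of the 6 arrays of that stage left out neither passed. At shield *p4ha2* passed in 21 of 22, the exception being the methods' t-test (adjusted p = 0.126).

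The regulators of HIF showed no call in either MO comparison. Of all genes, 0.218% to 0.572% were called per direction and stage. A count of 0 in lists of this size, here and below, is thus near the background share. The 4 measured alpha subunit genes ranged from -0.18 (*hif1ab*) to -0.02 (*epas1b*) on the log2 scale at shield. At 90% epiboly they ranged from -0.35 (*hif1al*) to 0.15 (*hif1ab*). For *hif1al* the first double morphant sample was at 10.79, beside 12.20 and 12.02, with controls at 11.86 to 12.12. The other *hif1al* features had means of 11.80, 10.75 and 9.52 in controls and 11.88, 11.10 and 9.51 in double morphants. The 4 genes of beta subunits and coactivators ranged from -0.25 (*ep300a*, a coactivator whose binding Hif1an prevents) to 0.08 (*arnt*) at shield. Their range at 90% epiboly was from -0.17 (*ep300a*) to 0.17 (*arnt2*). Next to *hif1an*, the hydroxylase list had 2 counted genes, *egln3* and *egln1b*, another prolyl hydroxylase, which was at -0.12 and 0.16. The 6 genes of the Vhl ligase lay between -0.10 (*vhll*) and 0.60 (*eloca*, an elongin C gene, adjusted p = 0.682 from limma) at shield and between -0.13 (*elocb*) and 0.30 (*vhll*) at 90% epiboly. The second feature of *eloca* gave -0.06 at shield. The single *vhll* feature was dim, with a mean signal of 6.28, under 6.56.

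Among the 23 measured target genes outside metabolism, the highest were *plod2*, a collagen lysyl hydroxylase, at 0.71 at shield (adjusted p = 0.608 from limma) and *bnip3lb*, a mitophagy receptor, at 0.57 at 90% epiboly (adjusted p = 0.929). The lowest were *p4ha2* at shield and *p4ha1b* at 90% epiboly, as given above. *ddit4*, a further gene of this list, had group means of 9.08 in shield controls and 7.58 in shield double morphants (8.42 to 9.91 against 6.64 to 8.30). At 90% epiboly the *ddit4* means were 9.01 and 8.26 with overlapping groups, and *ddit4* was not called at either stage. The other *plod2* features gave -0.17 and 0.08 at shield. At 90% epiboly all 3 *plod2* features had lower means in double morphants, at 9.62 against 10.20 in controls, 5.76 against 6.41 and 5.73 against 6.13. Only the second feature was without overlap there, the 2 dimmer ones had mean signals under 6.56, and none was called. By the brightest feature 0 of the 23 were called higher at either stage. At an unadjusted p under 0.05, 0 were higher and 4 lower at shield by limma, beside 4.8% and 4.16% of all genes. *vegfab* was at 12.51 to 12.62 in shield controls and 11.99 to 12.06 in double morphants, while its dim second feature overlapped. *p4ha1a*, another collagen prolyl 4-hydroxylase gene, was at 9.19 to 9.39 against 8.05 to 9.06 at shield. Neither was called. *cited2*, a competitor of HIF for its coactivators, was chosen after its values were seen. Its features gave 0.44, 0.58 and 0.64 at shield, and none was called (limma, adjusted p = 0.785, 0.364 and 0.117). Double morphants lay above every control there with the 2 dimmer ones. At 90% epiboly the *cited2* means were 7.24, 7.12 and 6.57 in controls and 7.09, 6.98 and 6.51 in double morphants. The 10 Vegf receptors and further ligands ranged from -0.45 (*vegfc*) to 0.75 (*vegfd*, adjusted p = 0.565 from limma) at shield and from -0.43 (*kdrl*, an endothelial Vegf receptor) to 0.56 (*vegfd*, adjusted p = 1) at 90% epiboly.

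Glucose uptake and glycolysis, the classical metabolic arm of the response, had 28 measured genes, and 0 passed in either direction at either stage by the brightest feature. At shield they ranged from -0.32 (*tpi1a*, a triosephosphate isomerase with a dim mean signal of 5.81) to 0.83 (*pgam1a*, a phosphoglycerate mutase, adjusted p = 0.378 from limma). At 90% epiboly the range was from -0.73 (*eno2*, an enolase) to 0.57 (*pkma*, a pyruvate kinase, adjusted p = 1). The 2 dimmer *pgam1a* features gave 0.82 (adjusted p = 0.319) and 1.03 (adjusted p = 0.0394), so the dimmest was called higher at shield while the brightest, which stands for the gene in the counts, was not. Double morphants lay above controls there with all 3 *pgam1a* features. The dimmest *pgam1a* feature was the only 1 called higher at shield among the 102 features of the 94 genes other than the brightest. At 90% epiboly 0 of the 102 were called higher. Of the 102, 2 were called lower at shield, both of *p4ha2*, and 1 at 90% epiboly, of *p4ha1b*. The share of all such features called was not computed. The list's medians were 0.17 and 0.14.

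The 13 genes of lactate and pyruvate metabolism ranged from -0.20 (*ldha*) to 0.48 (*pdp1*, a pyruvate dehydrogenase phosphatase, adjusted p = 0.454 from limma) at shield and from -0.22 (*mpc1*, a mitochondrial pyruvate carrier) to 0.44 (*pdhb*, a subunit of pyruvate dehydrogenase, adjusted p = 1) at 90% epiboly, with 0 called. Next to *slc16a3b*, 4 genes of monocarboxylate transporters and their chaperones were counted. They ran from -0.15 (*slc16a1b*) to 0.39 (*slc16a7*, adjusted p = 0.783 from limma) at shield and from -0.24 (*slc16a7*) to 0.15 (*slc16a1b*) at 90% epiboly. *bsg*, which in mammals chaperones this family of transporters to the membrane, gave 0.33 and -0.05 (adjusted p = 0.63 and 1). The second features of *pdp1* and *slc16a7* gave 0.12 and 0.09 at shield.

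With stage, by contrast, pathway genes changed in both directions in controls: of the 96 measured genes 14 rose and 11 fell from shield to 90% epiboly by limma (14.6% and 11.5%, beside the 7.2% and 8.29% of all genes). With *hif1an* and *slc16a3b* set aside, 14 of 94 rose and 10 fell (14.9% and 10.6%). The number that rose depended on single arrays, and with 1 array left out 4 to 13 of the 96 were higher and 8 to 13 lower. The number higher was 4 without the third control of 90% epiboly and 5 without the second. It was 6 without the third shield control, 8 without the first and 9 without the second. Shares of all genes with an array left out were not computed, so these counts cannot be read as particular to pathway genes. The methods' t-test, which called 0.0828% of all genes higher and 0.203% lower after adjustment, called 0 of the 96. In double morphants it called 2 higher and 2 lower of the 94, beside 0.617% and 0.692% of all genes. Limma called 12 higher and 11 lower there (12.8% and 11.7%), beside 7.89% and 8.23% of all genes. *ndrg1a*, a stress-induced HIF target, fell by 2.68 on the log2 scale (limma, adjusted p = 4.81e-05), and *bnip3lb* fell by 2.31 (adjusted p = 0.000211). *pkma* fell by 1.87 (adjusted p = 0.00231) and *ldhba*, a lactate dehydrogenase gene, fell by 0.84 (adjusted p = 0.00352). Those that rose included *vegfab*, the second zebrafish copy of Vegfa, by 1.04 (adjusted p = 0.000644 from limma), and the receptor gene *nrp2b* by 1.42 (adjusted p = 0.00127). In double morphants against controls *ndrg1a*, *bnip3lb* and *pkma* gave -0.07, 0.05 and 0.58 at shield and -0.41, 0.57 and 0.57 at 90% epiboly, none of which passed.

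The genes most like each of the chosen genes were found by the root mean square difference of centred log2 values over the 12 arrays, each gene by its brightest feature. For *hif1an* these were *insm1b* (0.291), *shox* (0.326), *micos10* (0.347), *ugcg* (0.359) and *lmf2b* (0.365), and the second *hif1an* feature differed by 0.227 from the first. *insm1b*, a zinc finger gene of endocrine and nerve cells, was 1.78 higher on the log2 scale in double morphants at shield and 0.98 at 90% epiboly, beside 1.69 and 0.95 for *hif1an*. *ugcg*, which encodes a glucosylceramide synthase, gave 0.94 and 1.01.

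For *slc16a3b* the 5 were *gdf3* (0.362), *vldlr* (0.546), *caprin2* (0.582), *gnmt* (0.643) and *rbpms2b* (0.752). *gdf3*, a maternally supplied partner of Nodal ligands, had group means of 11.05 and 12.85 in controls and double morphants at shield and 8.55 and 11.71 at 90% epiboly, log2 differences of 1.80 and 3.16. *vldlr*, a lipoprotein receptor gene, differed by 2.48 and 3.16. The other *slc16a3b* features differed from the brightest by 0.634 to 0.753, which is more than *gdf3* did. Likeness was measured over arrays that include the choosing comparison and carries no test. Among the 13286 genes *hif1an* was 39th in likeness to *slc16a3b*, while *slc16a3b* was 11417th in likeness to *hif1an*. The difference between them is the same 1.06 in both directions, so the ranks depend on how far the other genes lie from each.

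Markers of cell layers moved with some groups, and 0 of the marker genes measured had a mean signal under 6.56. The log2 of the summed intensity of the 6 mesoderm and notochord markers, which include *tbxta* and *tbx16*, was 12.55 to 12.75 in controls and 12.96 to 13.19 in double morphants at shield, and 12.27 to 12.47 against 12.41 to 12.66 at 90% epiboly. The markers did not move together, since the median log2 fold change of the 6 was -0.01 at shield and -0.18 at 90% epiboly while *tbxta* gave 1.19 and 1.81, and the lowest were *foxa2* at shield (-0.96, adjusted p = 0.309 from limma) and *shha* at 90% epiboly (-0.91, adjusted p = 0.158). At 90% epiboly the 3 ectoderm markers were at 12.92 to 13.11 against 13.34 to 13.49, and the 5 keratin genes of the enveloping layer at 17.68 to 17.80 against 17.23 to 17.53, with no overlap in either. At shield the ectoderm and enveloping layer sums overlapped, as did those of endoderm, yolk syncytial layer, germ cell and p53 response markers (5 of 7 p53 response genes measured) at both stages. The part of these shifts in the *hif1an*, *slc16a3b*, *p4ha1b* and *p4ha2* differences was not tested.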

How the data were processed

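Total RNA of 12 samples (4 groups of 3) was labelled with Alexa Fluor 647 and hybridised by the authors to Agilent zebrafish arrays. The authors deposited log2 intensities of 45220 features, normalized between arrays. Their background correction, normalization method and software: not given in the sources used here. A dim feature may thus hold no signal, and its changes may be understated. Every deposited column of values belonged to a sample.

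The array's symbols (26855 features with 1 symbol, 18365 with none) were updated through a RefSeq gene table by accession (24108), symbol (1758) or synonym (976), and 13 kept their own. A gene with several features is represented by its feature of highest mean signal, called the brightest, and others are numbered by brightness. No sequence or coordinate is given because no table of sequences was used.

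In R 4.3.3, limma 3.58.1 (lmFit, contrasts.fit, eBayes) was fitted on the 12 arrays together, each group having its own mean, with 8 residual and 5.32 prior degrees of freedom. Contrasts were double against control MO at each stage, their interaction, and 90% epiboly minus shield within each MO. Benjamini-Hochberg adjustment ran over all features at a threshold of 0.05. Intervals are 95% intervals of limma's moderated statistic, and ± gives the SD of intensities relative to the mean control intensity. The fit was tested on simulated data. Only 3 arrays per group limit the precision. Python 3.11.15, pandas 2.3.3 and matplotlib 3.10.9 made tables and figures.

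Members, lists and tests were chosen with earlier results of these data known. Named genes are all members, pathway genes called in a MO comparison, the extremes of each list per stage and the 5 genes most like *hif1an* and *slc16a3b*. *bsg*, *cited2*, *ddit4*, *p4ha1a* and *vegfab*, and the other genes named for their change with stage, were chosen after their values were seen. Same-numbered shield samples deviated together (correlations 0.34, 0.35 and 0.30), but no source states a pairing, and the main fit treated all samples as unpaired. At 90% epiboly the same-numbered correlations were 0.20, 0.08 and 0.41, above those of differently numbered samples (-0.27 to 0.03). These samples were not taken as paired either. The replicate block among the alternatives pairs same-numbered samples at both stages. Alternatives were each stage's own arrays, the replicate block, quantile, median and cyclic loess normalization, dim features removed (mean under 6.56), the methods' t-test, array weights, a trended and robust variance, features averaged per gene, and each array left out in turn.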

Additional observations from a re-analysis of the deposited data

How the results depend on the processing

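Of the 742 values that the 35 member differences took under the alternatives, 720 stayed the same, 3 passed only under the alternative and 3 no longer passed. A further 3 moved by more than 1 SD and 13 changed sign. For a tested gene, the same means an unchanged direction and side of the threshold. For *hif1an* and *slc16a3b*, which carry no test, it means an unchanged direction and a move of less than 1 SD. Apart from the stage fall of *hif1ab* in controls, no tested member difference passed in the main fit. For those others, the same mostly means still not passing, which says little about robustness. The 3 values that no longer passed were all of that *hif1ab* fall, among its 21 alternatives. The number of pathway genes called higher in double morphants stayed 0 at each stage under all 22 alternatives. In the main fit 0.286% of all genes were called higher at shield and 0.218% at 90% epiboly, so 0 of 94 is near the background. The methods' t-test after adjustment called 0.0% of all genes higher at shield and could give no other count there. Shares of all genes under the other alternatives were not computed, so no count below can be set against them. The replicate block left 0 higher and 1 lower at shield, 0 higher and 2 lower at 90% epiboly, and 0 and 0 for the interaction. With the block, the stage counts were 14 higher and 12 lower in controls and 12 and 13 in double morphants, and no member call changed. The cause of the changes below was not tested.

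The methods' t-test after adjustment called 0 pathway genes lower at shield and 0 at 90% epiboly, 0 higher and 0 lower with stage in controls, and 2 higher and 2 lower with stage in double morphants. With each stage on its own arrays, with trend and robust variance, or with features averaged per gene, 1 gene was lower at 90% epiboly, and with averaging 9 rose with stage in controls. Leaving out 1 array gave 0 to 2 lower genes at 90% epiboly (0 without any 1 of the 6 arrays of that stage or shield double morphant 3, 1 without shield control 2 or 3 or shield double morphant 1 or 2). It gave 4 to 13 higher with stage in controls (8, 9 and 6 without shield control 1, 2 and 3, and 5 and 4 without control 2 and 3 of 90% epiboly), and 6 to 14 higher in double morphants, with 6 without shield double morphant 3 and 7 without double morphant 3 of 90% epiboly.

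With features averaged, *slc16a3b* gave 1.68 at 90% epiboly, 0.13 for the interaction and -1.81 between the stages in controls. Sign changes were all of values that passed in neither setting. At 90% epiboly *egln3* gave -0.0163 with array weights and -0.0570 with features averaged. With 1 array left out, the double morphant difference ranged from -0.571 to 0.0474 for *ldha* and from -0.00166 to 0.283 for *vhl* at shield. At 90% epiboly it ranged from -0.00745 to 0.146 for *egln3*, from -0.0128 to 0.134 for *vhl* and from -0.402 to 0.189 for *vegfaa*. The interaction of *vhl* ranged from -0.231 to 0.0539 and the stage change of *vegfaa* in controls from -0.0428 to 0.548. The stage changes of *egln3* and *vhl* in double morphants ranged from -0.195 to 0.348 and from -0.0680 to 0.217. With the methods' t-test the stage fall of *hif1ab* in controls had adjusted p = 0.124.

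The number of samples and the unknown background set the limits. With 3 arrays per group, the 95% intervals of the tested members in the MO comparisons reached 1.82-fold upward and a log2 value of -1.15 downward. Upper bounds were 2.40-fold for the stage change in double morphants and 2.69-fold for the interaction. Changes of the dim *vegfaa* feature, of the *egln3* features and of the dimmer *slc16a3b* features may be understated.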
